A study of Homo sapiens with 6 samples.

Results

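The amino acid exchangers of the SLC7, SLC3 and SLC43 families were examined in PC-3 cells, a human prostate cancer line that lacks androgen receptor signalling. Members were chosen by name, with earlier results of these data known: 10 genes, all of them among the 19491 rows of the deposited gene tables. They are the LAT-type neutral amino acid transporters SLC7A5 (LAT1), SLC7A8 (LAT2), SLC43A1 (LAT3) and SLC43A2 (LAT4), the cystine/glutamate exchanger SLC7A11 (xCT), the cationic amino acid transporters SLC7A1 (CAT1), SLC7A6 (y+LAT2) and SLC7A7 (y+LAT1), and the heavy chains SLC3A2 (4F2hc) and SLC3A1 (rBAT). Cells were either left without inhibitor or incubated for 48 h with 1 mM GPNA (L-γ-glutamyl-p-nitroanilide) or 10 mM BenSer (O-benzylserine), both of which the study used to block the glutamine transporter ASCT2. The paper states that BenSer was also found to inhibit LAT1, in oocytes, and proposes that it has effects outside ASCT2. The doses of the inhibitors differed. All groups were the same line in the same serum-containing medium, and nothing in the labels states that the libraries of a group came from separate cultures. RNA sequencing values are given in CPM, reads of a gene per 1000000 reads of the library, for 2 deposited columns per group.

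LAT1, LAT2, xCT and both y+LAT proteins are light chains that must pair with 4F2hc, a single-pass glycoprotein, to reach the plasma membrane, and they exchange 1 amino acid inside the cell for another outside, whereas LAT3, LAT4 and CAT1 work without a heavy chain. LAT1 takes up leucine and other large neutral amino acids in exchange for glutamine, and xCT imports cystine, the oxidised form of cysteine, in exchange for glutamate. Several of these genes are textbook targets of ATF4, a transcription factor made when amino acids are scarce.

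Library totals lay between 23077986 and 32178154 reads, and listed genes took 51.6 to 52.7% of a library. The paired columns within each group were almost as alike as repeated sampling of reads would make them (chi-square per degree of freedom 1.05 to 1.06, against 5.50 to 20.7 between groups), so each group was counted as 1 sample. No p-value is therefore given for an effect of treatment, there is no replicate check, and the exact 95% Clopper-Pearson intervals cover counting error only. Differences are on the scale of log2(mean CPM + 1), which understates the change of genes with few reads, so the plain ratio of CPM is added for these. A gene was called higher or lower when this difference was at least 1.5-fold. The PC-3 identity was checked with markers: all 7 epithelial carcinoma markers were listed, with summed levels of 1703 to 1880 CPM, whereas 3 fibroblast markers summed to 4.68 to 8.01 CPM, 0 of 4 leukocyte and 0 of 3 endothelial markers were listed, and androgen receptor and KLK3 were not listed either. In bulk RNA, fewer cells with a transcript and less of it per cell cannot be told apart.

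BenSer-treated cells had higher levels of 4 of the 10 genes: the heavy chain SLC3A2 and the transporters SLC7A11, SLC43A2 and SLC7A5 lay 1.57 to 1.82 times above the control as ratios of CPM. Across the table, 1.96% of the 18976 genes compared were called higher with BenSer. None of the 10 genes was called lower with BenSer (0 of 10, against 1.58% of genes). GPNA-treated cells had 1 of 10 called higher, SLC7A8 (0.34% of 18828 genes), and 0 called lower (0.0637%). The median difference of the 10 genes was 0.26 with BenSer and 0.025 with GPNA, whereas the median over all genes compared was -0.028 in both comparisons. Both comparisons share the control columns. Since the 10 genes were chosen with earlier results of these data known, their counts beside all genes are a description and no test. With other library scalings, the genes called with BenSer split differently over the whole table, from 371 higher and 300 lower as reported to 432 higher and 214 lower with TMM scaling.

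**Figure D1:**
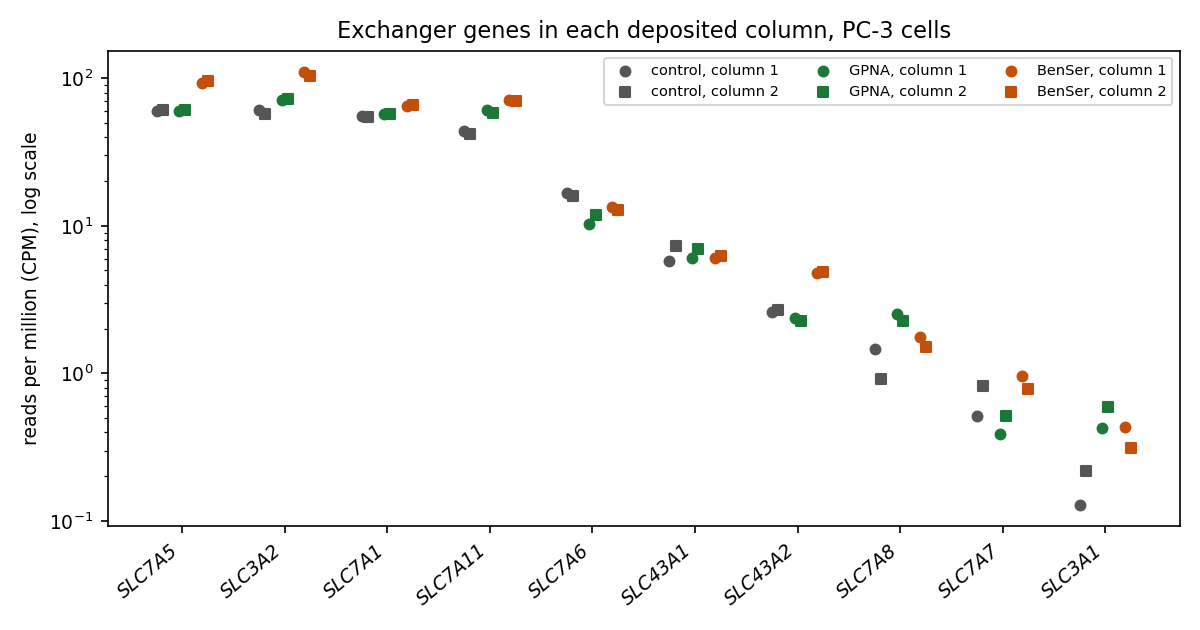
Levels of the 10 exchanger genes in each deposited column, in CPM on a log axis, ordered by the control mean. Circles and squares are columns 1 and 2 of a group, and the 2 columns of a group lie close together except for genes with few reads such as SLC3A1, at 0.129 and 0.217 CPM in the control.

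**Figure D2:**
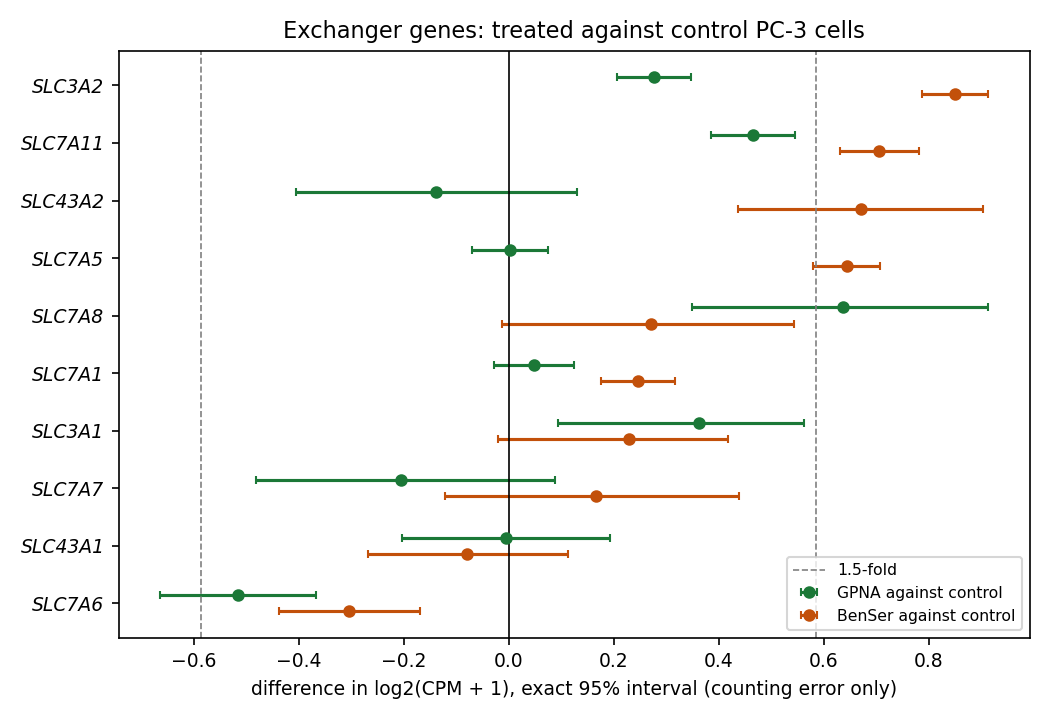
Differences of the treated groups from the control in log2(CPM + 1), with points for the merged columns, bars for exact 95% intervals that cover counting error only, and dashed lines at 1.5-fold. With BenSer, SLC3A2, SLC7A11, SLC43A2 and SLC7A5 lie beyond the line, whereas with GPNA only SLC7A8 of the 10 genes does.

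Stretches of promoter that match a searched motif are shown for SLC7A5, SLC3A2 and SLC7A1. Left out is a second match in SLC7A1 (an antioxidant core at position -85). These genes were picked because SLC7A5 and SLC3A2 were higher with BenSer and SLC7A1 was higher by less. Matches in other members are not shown, so the stretches do not stand for the 10 genes. RefSeq windows of 300 bases (250 before and 50 after the start, GRCh38.p14) were searched on both strands for TGATGNAA, the core of the C/EBP-ATF element that ATF4 binds, for TGACNNNGC, the core of the antioxidant response element that NRF2 binds, and for CACGTG, the E-box that MYC and related factors bind. Windows matched 8 of the 10 genes (all but SLC7A11 and SLC3A1), 18 windows in all. Capitals mark the matched letters, and position 0 is the first transcribed base.

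SLC7A5, E-box, chr16:87869620-87869649, minus strand: ggccggacgacgCACGTGctccgagctggg
SLC7A5, antioxidant core, chr16:87869490-87869519, minus strand: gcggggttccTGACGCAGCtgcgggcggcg
SLC3A2, antioxidant core, chr11:62881652-62881681, plus strand: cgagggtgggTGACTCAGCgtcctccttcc
SLC3A2, C/EBP-ATF core on the opposite strand, chr11:62881719-62881748, plus strand: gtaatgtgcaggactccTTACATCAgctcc
SLC7A1, C/EBP-ATF core, chr13:29595663-29595692, minus strand: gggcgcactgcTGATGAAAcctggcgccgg

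The C/EBP-ATF core was found in 2 of the 18 windows, at position 7 in SLC7A1 and at position 37 in SLC3A2, and in 2.19% of the 16048 windows of all genes of the table that had one. The antioxidant core was found in 5 of the 18 windows (SLC7A5, SLC3A2, SLC7A1, SLC7A6 and SLC7A7) and in 14.2% of all windows. SLC7A6, whose intervals lay below 0 with both inhibitors, held it at positions -197 and -29. SLC43A2, called higher with BenSer, had 3 windows and no match of any of the motifs. The E-box was found in 4 of the 18 windows (SLC7A5, SLC7A7, SLC7A8 and SLC43A1) and in 8.84% of all windows. No matches of different motifs shared a base (0 pairs). A match describes the letters of a window and is no evidence of binding.

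LAT1 carries leucine and other large neutral amino acids and is the LAT-type transporter with the most reads here. SLC7A5 (chr16:87863629-87903113, minus strand, GRCh37) had 59.8 and 61.2 CPM in the control columns, 60.0 and 61.3 CPM with GPNA, and 93.5 and 96.6 CPM with BenSer. Both BenSer columns lay above all 4 others, while the GPNA and control columns overlapped. The log2 difference was 0.64 (0.58 to 0.71) with BenSer, the 286th highest of 18976 genes, and 0.0026 (-0.070 to 0.076) with GPNA, with an interval that spanned 0. BenSer against GPNA gave 0.64 (0.58 to 0.70), and SLC7A5 was called higher there too (1.05% of 19056 genes). The pseudogene SLC7A5P1, which could share reads with its parent, had 0.799 CPM in control cells, 0.643 after GPNA and 0.327 after BenSer.

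LAT2 exchanges a broader set of neutral amino acids, small ones included. SLC7A8 (chr14:23594504-23652883, minus strand) had 1.46 and 0.91 CPM in the control columns, 2.52 and 2.28 CPM with GPNA, and 1.77 and 1.5 CPM with BenSer. The groups did not overlap, with the order control, BenSer, GPNA. Only 55 control reads, 123 GPNA reads and 105 BenSer reads stood behind these levels. The log2 difference with GPNA was 0.64 (0.35 to 0.91), the 50th highest of 18828 genes, or a CPM ratio of 2.02 (1.46 to 2.83). Without control column 2 it was 0.46 and without GPNA column 1 it was 0.58, both short of 1.5-fold, so this call rested on single columns. With the columns entered as samples, which compares libraries only, edgeR called SLC7A8 higher, limma did not, and DESeq2 gave it no adjusted value. With BenSer the difference was 0.27, with an interval from -0.012 to 0.54 that included 0. BenSer lay below GPNA by a log2 difference of -0.37 (-0.62 to -0.11).

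LAT3 and LAT4 are uniporters that let large neutral amino acids such as leucine pass without exchange. SLC43A1 (chr11:57252007-57283253, minus strand) had 5.81 and 7.28 CPM in the control columns, 6.05 and 6.99 CPM with GPNA, and 6.03 and 6.26 CPM with BenSer. All 3 groups overlapped, and the control columns spanned every other value. The difference was -0.0050 (-0.20 to 0.19) with GPNA and -0.079 (-0.27 to 0.11) with BenSer, and the GPNA value took the other sign, 0.029, with TMM scaling.

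SLC43A2 (LAT4, chr17:1472562-1532180, minus strand) had 2.63 and 2.69 CPM in the control columns, 2.36 and 2.28 CPM with GPNA, and 4.76 and 4.88 CPM with BenSer. The BenSer columns stood apart from the other 4. The log2 difference with BenSer was 0.67 (0.44 to 0.90), from 123 control and 309 BenSer reads, or a CPM ratio of 1.81. That with GPNA was -0.14 (-0.40 to 0.13). Against GPNA, BenSer gave 0.81 (0.58 to 1.04), the 63rd highest of 19056 genes. The BenSer intervals of the 2 uniporter genes did not meet.

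xCT supplies cystine, from which cells make cysteine and glutathione, at the cost of intracellular glutamate. SLC7A11 (chr4:139085251-139163503, minus strand) had 43.8 and 41.9 CPM in the control columns, 60.9 and 58.1 CPM with GPNA, and 71.4 and 69.7 CPM with BenSer. The groups were fully separate, and both inhibitors lay above the control. With GPNA the log2 difference was 0.46 (0.38 to 0.55), the 147th highest of 18828 genes and below the 1.5-fold line. With BenSer it was 0.71 (0.63 to 0.78), and this gene was called. BenSer lay above GPNA by 0.24 (0.18 to 0.31). The antisense gene SLC7A11-AS1 overlaps 8.97% of the SLC7A11 exon bases and had 1.27 CPM in control cells, 2.38 after GPNA and 2.56 after BenSer. The library kit keeps strand, but the strand setting used to count reads is not given in the sources used here.

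The CAT1 and y+LAT proteins carry arginine and lysine. CAT1 is the main entry route of arginine in most dividing cells, and the y+LAT proteins exchange cationic for neutral amino acids and sodium. SLC7A1 (chr13:30083551-30169825, minus strand) had 55.6 and 54.8 CPM in the control columns, 57.0 and 57.2 CPM with GPNA, and 65.4 and 66.0 CPM with BenSer. Both BenSer columns were the highest, and no groups overlapped. The difference was 0.25 (0.18 to 0.32) with BenSer and 0.048 (-0.028 to 0.12) with GPNA, neither near 1.5-fold.

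SLC7A6 (y+LAT2, chr16:68298419-68335726, plus strand) was the one member whose interval lay below 0 with both inhibitors. It had 16.7 and 16.0 CPM in the control columns, 10.3 and 11.9 CPM with GPNA, and 13.4 and 12.7 CPM with BenSer. The order was control, BenSer, GPNA, without overlap. The log2 difference with GPNA was -0.51 (-0.66 to -0.37), the 33rd lowest of 18828 genes, which is under 1.5-fold. Without GPNA column 2 it was -0.61 and would be called lower. With BenSer it was -0.30 (-0.44 to -0.17), and BenSer lay above GPNA by 0.21. The gene SLC7A6OS on the opposite strand shares 44.4% of the SLC7A6 exon bases. Its levels were 6.76 CPM in control cells, 5.97 after GPNA and 7.42 after BenSer, so its reads cannot be told apart from those of SLC7A6 if counting ignored strand.

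SLC7A7 (y+LAT1, chr14:23242431-23299029, minus strand) was near the limit of what this depth can measure. It had 0.517 and 0.823 CPM in the control columns, 0.388 and 0.511 CPM with GPNA, and 0.963 and 0.783 CPM with BenSer, from 31, 23 and 56 reads per group. The control and BenSer columns overlapped. Neither difference from the control was detectable at this depth (-0.20, interval -0.48 to 0.088, with GPNA and 0.17, interval -0.12 to 0.44, with BenSer, or CPM ratios of 0.67 and 1.30). BenSer lay above GPNA by 0.37 (0.095 to 0.62), a CPM ratio of 1.95.

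4F2hc is the shared heavy chain of LAT1, LAT2, xCT and the y+LAT proteins. SLC3A2 (chr11:62623476-62656352, plus strand) had 60.8 and 57.0 CPM in the control columns, 71.0 and 72.1 CPM with GPNA, and 109.8 and 104.1 CPM with BenSer. The groups were separate, and the BenSer columns were far above the rest. The log2 difference with BenSer was 0.85 (0.79 to 0.91), the 143rd highest of 18976 genes and the largest of the 10 members in this comparison. With GPNA it was 0.28 (0.21 to 0.35). BenSer against GPNA gave 0.57 (0.52 to 0.63), just inside the 1.5-fold line, and it was called when BenSer column 2 was left out.

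rBAT is the heavy chain of the renal and intestinal cystine and cationic amino acid transporter, whose light chain SLC7A9 was not listed. SLC3A1 (chr2:44502597-44548633, plus strand) had 0.129 and 0.217 CPM in the control columns, 0.426 and 0.589 CPM with GPNA, and 0.435 and 0.313 CPM with BenSer. These were 8, 26 and 24 reads per group. Both treated groups lay above the control, and they overlapped each other. The difference with GPNA was 0.36 (0.094 to 0.56), a CPM ratio of 2.94 with a wide interval of 1.29 to 7.5. With BenSer it was 0.23 (-0.020 to 0.42), a ratio of 2.17 (0.942 to 5.58). PREPL on the opposite strand shares 29.4% of the SLC3A1 exon bases and had 45.2 CPM in control cells, 45.3 after GPNA and 53.7 after BenSer, far more than SLC3A1 itself. Its part in the SLC3A1 reads was not tested.

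**Figure D3:**
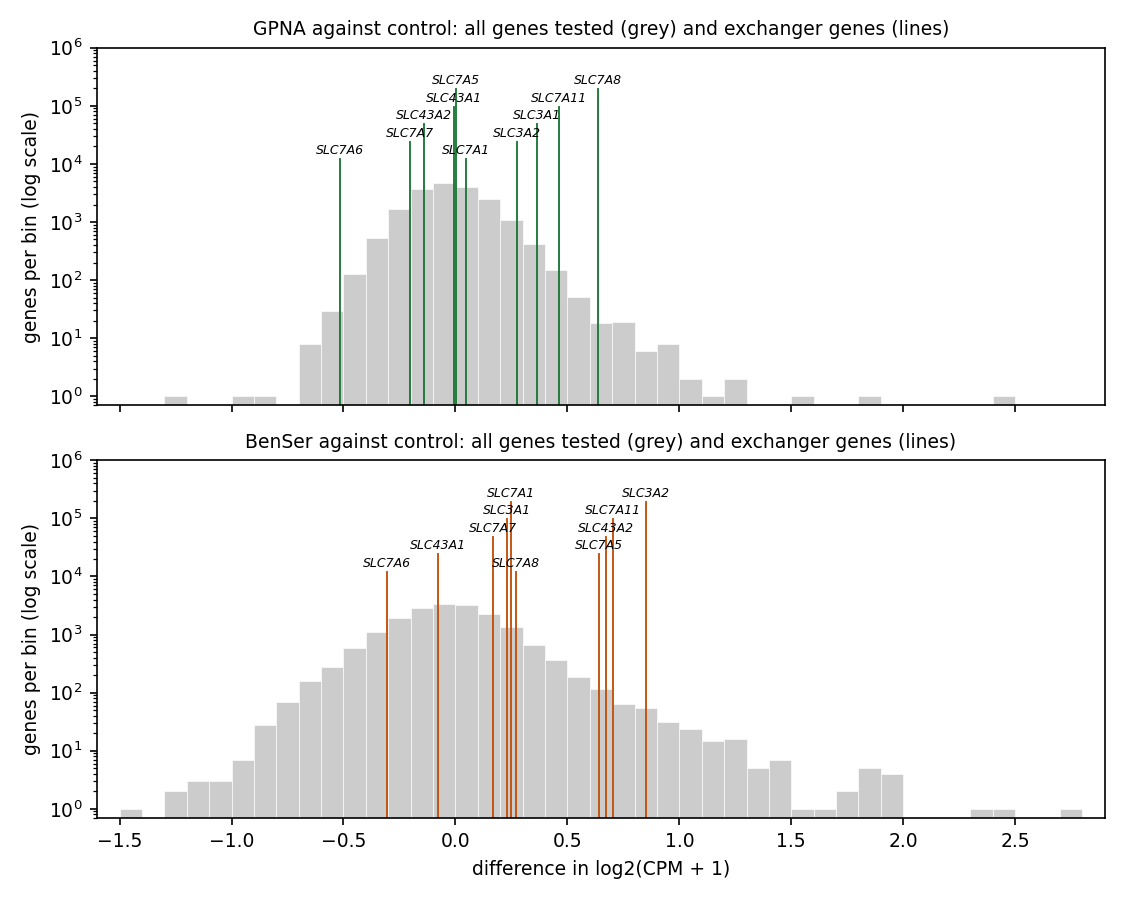
Differences from the control in log2(CPM + 1) on the horizontal axis, with grey bars for the number of genes per bin of 0.1 on a log axis and coloured lines for the 10 exchanger genes, with GPNA above and BenSer below. Line heights carry no value. With BenSer, 4 lines stand together between 0.64 and 0.85, out in the upper tail of all 18976 genes, while SLC7A6 lies at -0.30.

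Sorted by whether the columns of the groups overlapped, both GPNA columns lay above both control columns for 5 of the 10 genes (22.4% of all genes compared) and below for 3 (34.4%). With BenSer this held above the control for 7 (28.5%) and below for 1 (37.5%), and against GPNA BenSer was above for 7 (31.7%) and below for 1 (33.6%). The exact intervals lay above 0 for 4 members and below 0 for 1 with GPNA, and above 0 for 5 and below 0 for 1 with BenSer. The share of all genes whose interval excluded 0 was not computed, so these counts set the members apart from no background. In the direct comparison of the inhibitors, whose doses differed, 2 members were called higher with BenSer (SLC7A5 and SLC43A2, 1.05% of genes) and 0 lower (0.813%). In all, 5 of the 10 genes were called in no comparison: SLC43A1, SLC7A1, SLC7A6, SLC7A7 and SLC3A1. When columns were entered as samples, edgeR, DESeq2 and limma all called SLC7A1 higher with BenSer and SLC7A6 lower with GPNA. edgeR and limma also called SLC7A6 lower with BenSer, and edgeR alone called SLC3A1 higher with GPNA. Against GPNA, all of them called SLC7A1 higher with BenSer, and edgeR alone SLC7A6 and SLC7A7. SLC43A1 was called by none. These models call many genes: edgeR called 3608 of 18828 with GPNA, 7122 of 18976 with BenSer and 6600 of 19056 between the inhibitors.

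Levels were set side by side between genes only per length, as CPM per kb of merged exons in the GENCODE annotation on GRCh37. In the control, SLC7A5 had the highest level per kb (12.6 and 12.8), followed by SLC3A2 (9.51 and 8.92), SLC7A1 (7.23 and 7.13) and SLC7A11 (4.54 and 4.35). These 4 genes did not overlap between neighbours. SLC7A6 (2.20 and 2.11) and SLC43A1 (1.65 and 2.06) came next, close to each other. With GPNA, SLC43A1 lay above SLC7A6 in both columns, and with BenSer the columns of these 2 genes overlapped. The other 4 were low: SLC43A2 at a mean of 0.250, SLC7A8 at 0.198, SLC7A7 at 0.125 and SLC3A1 at 0.026. Among these, the columns of SLC7A8 and SLC7A7 overlapped. The place of SLC3A2 depended on the length used: with the canonical transcript, a length chosen after the values were seen, it had 31.3 CPM per kb in the control against 13.3 for SLC7A5 and ranked above it.

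Since light chains need 4F2hc, the summed level per kb of the 5 light chain genes that pair with it (SLC7A5, SLC7A6, SLC7A7, SLC7A8 and SLC7A11) was divided by that of SLC3A2. This ratio was 2.06 and 2.20 in the control columns, 1.87 and 1.86 with GPNA, and 1.70 and 1.82 with BenSer. Both treated groups lay below the control in this ratio, on the canonical lengths too, where the group means were 0.671, 0.581 and 0.548. SLC7A11 made up 23.1 and 22.2% of the light chain sum in control cells, 30.4 and 28.8% after GPNA, and 25.3 and 24.4% after BenSer. SLC7A5 made up 64.0 and 65.5%, 60.6 and 61.5%, and 67.1 and 68.6% in the same order. The mix of light chain transcripts held the largest SLC7A11 share with GPNA and the largest SLC7A5 share with BenSer. These ratios are of transcripts and not of protein, and no test was possible on 1 sample per group.

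**Figure D4:**
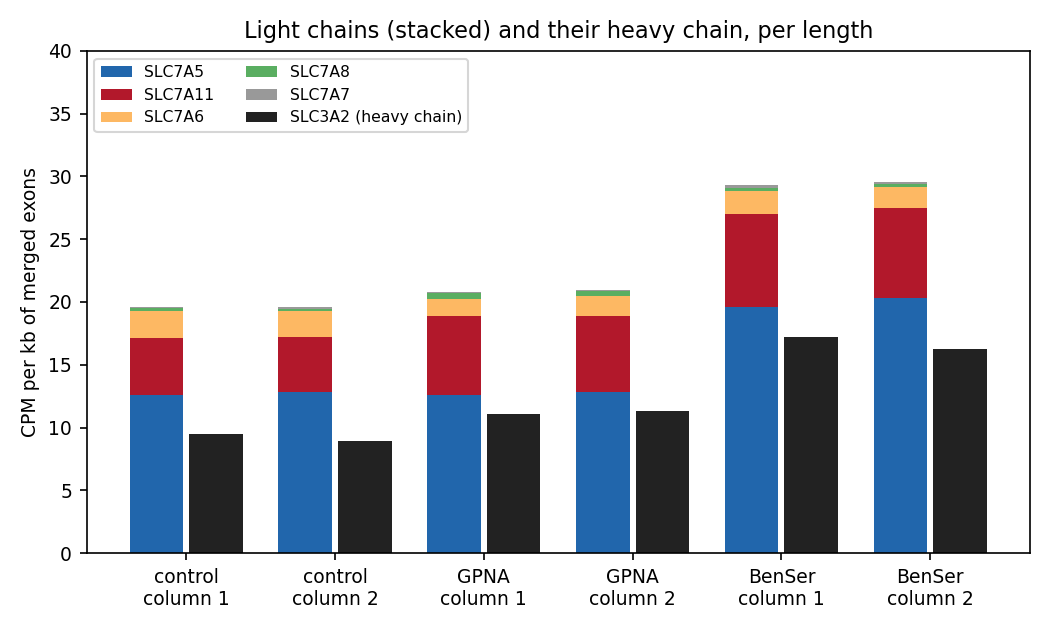
Level per length, in CPM per kb of merged exons, in each deposited column: stacked bars are the 5 light chain genes and black bars the heavy chain SLC3A2. Against the control, the stack holds more SLC7A11 with GPNA and more of both SLC7A5 and SLC7A11 with BenSer, and the black bar is highest with BenSer.

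Around these exchangers, genes were read from lists, which were also chosen with earlier results of these data known. Of the other SLC7 and SLC43 genes, 2 of 8 were listed, SLC7A2 and SLC43A3. SLC43A3, a relative of LAT3 that carries nucleobases, was called lower with BenSer at -0.72, from 5.10 to 2.70 CPM, and had -0.38 with GPNA. SLC7A2, a cationic amino acid transporter, had -0.044 with GPNA and -0.21 with BenSer, both with intervals that included 0.

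Sodium-coupled transporters load the cell with the amino acids that exchangers trade, and 6 of 7 on the list were listed. With BenSer 1 was called higher (1.96% of all genes), SLC1A4 (ASCT1) at 0.63. SLC1A5 (ASCT2), the transporter both compounds were meant to block, had 0.58 with BenSer, just inside the line, and 0.043 (-0.044 to 0.13) with GPNA. SLC38A2 (SNAT2) had 0.38 with BenSer and -0.047 with GPNA, and SLC38A1 (SNAT1) had 0.11 and 0.15. SLC38A5 and SLC6A14 had 10 to 35 reads per group. With GPNA, 0 of 6 were called in either direction (0.34% of all genes higher, 0.0637% lower). The CPM ratio of SLC6A14 was nevertheless 0.347 (0.15 to 0.745). The list's median was 0.24 with BenSer and -0.0024 with GPNA.

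Of 10 genes of cystine use and glutathione, 2 were called higher with BenSer (1.96% of all genes) and 1 with GPNA (0.34%). In either comparison 0 were called lower (1.58% of all genes with BenSer, 0.0637% with GPNA). CHAC1, which degrades glutathione, had 3.91 CPM in control cells, 7.73 after GPNA (0.83, 0.62 to 1.04) and 11.3 after BenSer (1.33, 1.13 to 1.53). CBS, the first enzyme of transsulfuration, had 0.43 with GPNA and 0.96 with BenSer. The enzymes that build glutathione had small differences of both signs with BenSer: 0.19 for GCLC, -0.19 for GCLM and -0.19 for GSS. CTH, which makes cysteine from cystathionine, had -0.37 with GPNA and -0.078 with BenSer. GSR, GPX4, TXNRD1 and CD44, a surface glycoprotein that stabilises xCT, lay between -0.062 and 0.12 in both comparisons. The medians were 0.034 with GPNA and 0.023 with BenSer.

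Of ATF4 and 9 of its known targets outside the transporters, 3 were called higher with GPNA (0.34% of genes) and 5 with BenSer (1.96%). In either comparison 0 were lower (0.0637% of genes with GPNA, 1.58% with BenSer). The medians were 0.39 with GPNA and 0.63 with BenSer. ATF4 itself had 112.1 CPM in control cells, 139.7 after GPNA (0.31) and 165.2 after BenSer (0.55). ASNS, which makes asparagine, had 0.71 and 1.18, SESN2, a brake on mTORC1, had 0.80 and 0.87, and TRIB3, a pseudokinase that restrains ATF4, had 0.63 and 0.48. The serine synthesis enzymes PHGDH and PSAT1 had 0.42 and 0.35 with GPNA and 0.96 and 0.70 with BenSer. DDIT3 (CHOP) had 0.58 with GPNA, a CPM ratio of 1.59 that missed the line on the log2(CPM + 1) scale, and 0.81 with BenSer. ATF3 (0.14 and 0.16) and CEBPB (0.21 and 0.14) stayed inside 1.5-fold. VLDLR, with few reads, had 0.20 and 0.47 and was not called, but its CPM ratio with BenSer was 1.66 (1.23 to 2.25).

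The genes nearest to 3 members in their pair of differences were sought among 7723 protein-coding genes with at least 10 CPM in the control. The measure was the distance over the 2 log2 differences, with GPNA and with BenSer. Nearest to SLC7A11 were NEBL (distance 0.053), TRIM21 (0.066) and SP100 (0.080). Nearest to SLC3A2 were NNMT (0.014), PMEPA1 (0.044) and PTGFR (0.051), and nearest to SLC7A5 were STON2 (0.021), SPTLC3 (0.039) and LXN (0.042). With 2 comparisons that share a control, such nearness is a description of these 3 samples.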

How the data were processed

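PC-3 cells without inhibitor, with GPNA or with BenSer were profiled by RNA sequencing, with 2 labelled libraries per group. According to the study's methods, the authors prepared stranded total RNA libraries, used TopHat2 to map trimmed paired-end reads (hg19/GRCh37.p13) and divided the reads of each gene by library size; the submitters' processing notes also name Bowtie2, HTSeq 0.6.2p2 and DESeq. The deposited values are CPM, although their columns are named counts. All of them (100%) were whole reads within 0.01 read, so reads were recovered. Columns 1 and 2 of each group match a label and were used. The other 8 value columns (6 distinct) were not analysed. The study's methods report exact tests on more replicates than the 2 labelled libraries per group. The authors' deposited fold changes, log2 CPM, p-values and false discovery rates were not used.

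The 2 columns of a group were compared by chi-square for genes with 20 or more reads in the pair (p = 1.25e-08, 3.17e-05 and 9.36e-06 for control, GPNA and BenSer) and counted as 1 sample, since the excess over sampling was small; no treatment test was made. Column numbers did not pair the samples. The mean CPM was compared as log2(CPM + 1) for genes that averaged 5 or more reads in 1 of the groups compared, and 1.5-fold was the threshold. The intervals are Clopper-Pearson at 95% on merged reads. edgeR (4.0.16), limma (3.58.1) and DESeq2 (1.42.0) in R 4.3.3, with Benjamini-Hochberg adjustment at 0.05, entered the columns as samples as alternatives and compare libraries only. Python 3.11.15, numpy 2.4.6, pandas 2.3.3, scipy 1.17.1 and matplotlib 3.10.9 were used for the rest, and the steps were tested on simulated data. Named genes were all 10 members, the genes of the lists, and the 3 nearest genes of 3 members. Members and lists were chosen with earlier results of these data known. A planned comparison of protein sequences was not run. Promoter windows were taken from RefSeq (GRCh38.p14), and gene positions from GENCODE on GRCh37.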

Additional observations from a re-analysis of the deposited data

How the results depend on the processing

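The columns of a group are nearly technical repeats, so the numbers below describe these libraries and not biological spread. Of 360 member differences recomputed under the alternatives, 326 stayed within their counting interval and 34 moved beyond it, with 0 called differences changing sign. The 34 were of SLC7A8, SLC7A7, SLC3A1 and SLC43A2, under a smaller or no pseudocount or a count model. SLC7A8 with GPNA was 0.96 with a pseudocount of 0.1 and 1.02 with none. With TMM or DESeq2 scaling the called members were the same, and GPNA calls over all genes were 82 higher and 9 lower with TMM. The count and limma models turned the GPNA split to more lower than higher: 1067 higher and 2541 lower with edgeR, 563 and 715 with DESeq2, and 243 and 302 with limma. With BenSer it was 2931 and 4191, 2152 and 2063, and 2163 and 3115. edgeR and limma used the library totals here without TMM factors, whereas DESeq2 used its size factors. The part of this scaling in these splits was not tested.

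With GPNA, members called numbered 2 with a pseudocount of 0.1, 2 with none, 4 at a lower threshold (25% higher, or the same ratio lower), 0 at 2-fold, 5 with edgeR, 3 with DESeq2 and 2 with limma, and 0 to 2 when a column was left out. The 0 came without control column 2 and without GPNA column 1. DESeq2 called SLC7A11, SLC7A6 and SLC3A2, and limma SLC7A11 and SLC7A6, so SLC7A8 was not among them. All genes called numbered 1531, 2230, 1054, 9, 3608, 1278 and 545 in the same order, and 99 to 113 without a column. With BenSer, members called numbered 5, 5, 4, 0, 6, 5 and 6 in that order, and 4 whichever column was left out; all genes numbered, in that order, 2602, 3336, 3357, 92, 7122, 4215 and 5278, and 696 to 749. For BenSer against GPNA, members numbered 3, 3, 5, 0, 8, 5 and 5 in the same order, and 2 to 3 without a column. All genes, again in that order, numbered 2173, 2991, 2657, 30, 6600, 3690 and 4177, and 390 to 413.

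With the replicate number as a block, edgeR called 5, 6 and 8 members and 3613, 7090 and 6582 genes with GPNA, with BenSer and between the inhibitors. Deviations of same-numbered columns correlated at 0.043 to 0.066 over 7924 genes, so the numbers were not taken to pair the samples. With canonical transcript lengths, added after the data were seen, SLC3A2 had 31.3, 38.0 and 56.7 CPM per kb in control, GPNA and BenSer cells. Depth limits SLC7A7 and SLC3A1 most, with 8 to 56 reads per group.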
